A study of Homo sapiens with 5 samples.

Results

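The control libraries of this series are the 2 HCT116 libraries labelled NC, called control 2 and control 1 here by the number in their labels. Their membership follows from that label and uses no measured value, and they are 2 of 5 libraries in all. HCT116 is an established human colorectal carcinoma cell line, grown in culture and so without the other cell types of the gut wall. The study used siRNAs, short double-stranded RNAs that lower a matching transcript, against the transcription factors SP1 and SP3. The 2 libraries described here are its controls, and no knockdown library was used. The labels give both controls as HCT116 cells with the entry control, extracted with Trizol as total RNA, and they give no separate treatment, dose or time for them. Nothing says that the controls came from separate cultures, so a difference between them measures only the spread between these 2 libraries, which may be technical.

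SP1 and SP3 are zinc finger proteins that bind GC-rich promoter sites, the GC boxes, found before a large share of genes that are active in most cells. HCT116 is a widely used colorectal line with a mutant CTNNB1 gene, which encodes beta-catenin, and with functional p53. Control libraries show which genes such a cell transcribes, and how far any gene can differ between libraries that carry the same label.

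The unit was FPKM, the fragments per kilobase of transcript scaled by the number of fragments counted. The library totals behind the values, recovered from their steps, were 15899164 reads in control 2 and 15681880 in control 1. Reads per gene recovered in this way are lower limits. Each table listed 20030 gene symbols, and FPKM summed to 401682 in control 2 and 398973 in control 1. With 1 library on each side, a difference between the controls has no replicate check, and no p-value is given.

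Most listed genes were expressed in both controls, and the same genes were at the top in both libraries. A level of at least 1 FPKM was reached by 10876 genes in control 2 and 10944 in control 1. Both controls reached it for 10765 genes, or 53.7% of those listed. The 290 genes that reached it in 1 control alone were all low, at 3.03 FPKM or less. Among genes at 1 FPKM in both, the median was 8.08 FPKM in control 2 and 8.33 FPKM in control 1. Genes at 100 FPKM or more numbered 484 in control 2 and 483 in control 1, with 468 shared. Both controls listed 3676 genes at 0. A further 1270 genes were above 0 in 1 control only, 576 of them in control 2 and 694 in control 1. The most recovered reads of any of them were 5, which is a lower limit, so the true number can be larger. Their highest level was 0.711 FPKM in control 2 and 0.471 FPKM in control 1. A count of 0 allows up to 3 reads in a library of this size, for counting error only.

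A few genes took much of the signal. The 10 highest genes held 12.8% of all FPKM in control 2 and 12.7% in control 1. The 100 highest held 43.9% in control 2 and 43.4% in control 1, and the 1000 highest held 73.2% in control 2 and 72.5% in control 1. The 25 highest genes of control 2 were the 25 highest of control 1, and the same held for the 100 highest.

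The highest gene was GAPDH, a glycolytic enzyme, with 9722 FPKM in control 2 and 9759 FPKM in control 1 (mean 9741 ± 25.7, SD, n = 2). ACTG1, the cytoplasmic gamma-actin, came next with 9348 FPKM in control 2 and 8502 FPKM in control 1. This was the largest difference among the 25 highest genes, at 0.14 on the log2(FPKM + 1) scale. The translation elongation factor EEF1A1 had 5452 FPKM in control 2 and 5156 FPKM in control 1. Levels in the top places stood apart: the values of GAPDH, ACTG1, EEF1A1 and RPS18, a small ribosomal subunit protein with 4914 FPKM in control 2 and 4805 FPKM in control 1, did not overlap from one gene to the next. RPS18 was above the actin-binding peptide TMSB10 in each control, where TMSB10 had 4814 FPKM in control 2 and 4774 FPKM in control 1. The values of these genes overlapped only across the controls. Among the 24 neighbouring pairs of the 25 highest genes, with both controls pooled, the values of 13 pairs did not overlap and those of the other 11 did. An overlap of this kind can hold although both controls order the pair alike. Both ferritin chains, which store iron, were in the group: FTH1, the heavy chain, had 3952 FPKM in control 2 and 3747 FPKM in control 1, and FTL, the light chain, had 2617 FPKM in control 2 and 2602 FPKM in control 1. HMGA1, a chromatin architecture protein, closed the group with 2080.3 FPKM in control 2 and 2014 FPKM in control 1 and was its only gene on none of the lists below.

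**Figure D1:**
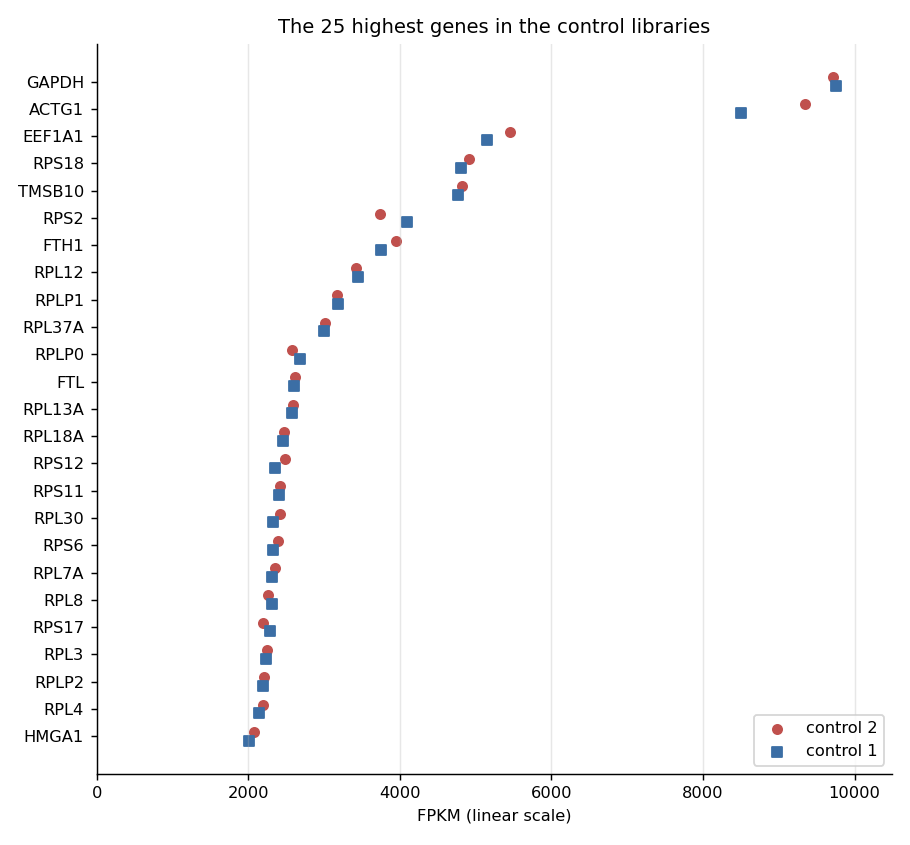
FPKM of the 25 highest genes, 1 point for control 2 (circle, upper) and 1 for control 1 (square, lower) in each row, on a linear axis from 0. GAPDH and ACTG1 lie between 8502 and 9759 FPKM, and the other genes lie at 5452 FPKM or less.

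Genes that encode the cytosolic ribosome held the largest share among the lists. Of the 25 highest genes, 18 encode ribosomal proteins, and these alone held 12.3% of all FPKM. All 78 listed cytosolic ribosomal protein genes were at 1 FPKM or more in both controls. Together they held 26.3% of all FPKM, with a median of 1162 FPKM. The highest was RPS18. RPS2, also of the small subunit, had 3732 FPKM in control 2 and 4097 FPKM in control 1. The lowest was RPS10, with 1.57 FPKM in control 2 and 1.67 FPKM in control 1. Readthrough and copy genes bear on such values: RPS10 overlaps the readthrough gene RPS10-NUDT3, listed at 0 in both controls, and RPL17, with 23.6 FPKM in control 2 and 20.5 FPKM in control 1, overlaps RPL17-C18orf32, also listed at 0. Ribosomal protein genes have many near-identical processed copies. The rule for reads matching several places was not given in the sources used here, and single values in this family are uncertain. The 37 translation factors, all at 1 FPKM or more, held 3.73% of all FPKM.

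Genes of energy and lipid metabolism were expressed almost without exception. Of 25 glycolysis genes, 24 reached 1 FPKM in both controls, with a median of 213 FPKM. ALDOA, the aldolase of muscle and most growing cells, had 1775 FPKM in control 2 and 1671 FPKM in control 1. LDHA, which turns pyruvate into lactate, had 1552 FPKM in control 2 and 1491 FPKM in control 1. The glucose transporter SLC2A1 had 351 FPKM in control 2 and 335 FPKM in control 1. All 22 genes of the hypoxia response list reached 1 FPKM, and their median was 71.0 FPKM. The highest of them was DDIT4, an mTOR inhibitor, with 1095 FPKM in control 2 and 1099.8 FPKM in control 1. The vasodilator peptide ADM had 807 FPKM in control 2 and 758 FPKM in control 1. All 45 nuclear-encoded subunits of the respiratory chain were expressed, with a median of 71.7 FPKM, and ATP5F1B, a catalytic subunit of ATP synthase, was highest with 529 FPKM in control 2 and 509.7 FPKM in control 1. The cholesterol synthesis list was fully expressed, with 25 of 25 genes at 1 FPKM or more and a median of 64.3 FPKM. The fatty acid desaturase SCD had 911 FPKM in control 2 and 932 FPKM in control 1 and the fatty acid synthase FASN had 499.6 FPKM in control 2 and 520.2 FPKM in control 1. No mitochondrially encoded gene and no long non-coding RNA of the lists was in the tables, and these genes were not analysed here.

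Promoter letters were set beside the level of the genes. A RefSeq promoter window of 300 bases, from 250 before to 50 after the start (GRCh38.p14), was matched for 15413 of the listed symbols. Only the first window listed for each symbol was kept, so any other start of a gene was not searched. The GC box was searched as GGGCGG on both strands. It was present in 75.6% of the 397 windows of genes with a mean of 100 FPKM or more, in 75.8% of 3481 windows at 10 to 100 FPKM, and in 70.9% of 5005 windows at 1 to 10 FPKM. It was present in 48.3% of 3936 windows of genes above 0 but under 1 FPKM, and in 27.1% of 2594 windows of genes listed at 0 in both controls. All windows together held it in 59.0%. The share was thus higher in each class up to 10 to 100 FPKM, and about the same above it. Median GC content of the windows was 65.0% at 100 FPKM or more and 51.0% for the genes listed at 0, so the count of GC-rich words moves with base composition. The TATA box, searched as TATAAA on both strands, ran the other way at the low end. It was in 22.2% of windows of genes listed at 0, in 4.88% at 10 to 100 FPKM and in 12.8% at 100 FPKM or more, against 9.58% of all windows. For the ribosomal protein genes, the most abundant list, 54.1% of 61 matched windows held a GC box. A match describes the letters of the window and says nothing of binding.

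The promoter window kept for GAPDH, the gene with the highest level, is shown. It is given as the 250 bases before the start at chr12:6535014-6535263, plus strand, with its 2 GC box matches in capitals, both in the reverse orientation. No TATAAA was found in these bases, which belong to the start kept for GAPDH. Any other start of the gene was not searched.
GAPDH: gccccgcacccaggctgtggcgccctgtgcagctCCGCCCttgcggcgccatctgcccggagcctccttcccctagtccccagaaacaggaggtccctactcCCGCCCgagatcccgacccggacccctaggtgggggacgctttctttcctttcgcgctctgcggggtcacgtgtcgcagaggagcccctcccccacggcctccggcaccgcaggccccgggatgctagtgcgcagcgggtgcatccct

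The line carried a strong simple-epithelial keratin and junction programme, while most genes of intestinal differentiation were under 1 FPKM. Of 37 epithelial adhesion and keratin genes, 33 were at 1 FPKM or more in both controls, with a median of 23.3 FPKM. The simple-epithelium keratins were highest. KRT8 had 1799 FPKM in control 2 and 1749 FPKM in control 1, its partner KRT18 had 739.8 FPKM in control 2 and 750.4 FPKM in control 1, and KRT19 had 1321 FPKM in control 2 and 1362 FPKM in control 1. CLDN4, a tight junction claudin, had 625 FPKM in control 2 and 629.8 FPKM in control 1. The adhesion molecule EPCAM had 105 FPKM in control 2 and 99.7 FPKM in control 1, and CDH1, which encodes E-cadherin, had 49.1 FPKM in control 2 and 48.6 FPKM in control 1. The epithelial splicing regulator ESRP1 had 31.1 FPKM in control 2 and 33.5 FPKM in control 1. KRT20 and CDH17, both markers of differentiated gut epithelium, were among the 4 members under 1 FPKM in both controls. KRT20 had 0.105 FPKM in control 2 and 0.141 FPKM in control 1, and CDH17 had 0.0165 FPKM in control 2 and 0 FPKM in control 1.

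Of 39 genes of intestinal differentiation, 7 reached 1 FPKM in both controls and 31 were under it in both. The median was 0.0231 FPKM. CDX2, an intestinal transcription factor, had 1.13 FPKM in control 2 and 1.15 FPKM in control 1, and CDX1, its relative, was listed at 0. VIL1, which encodes the brush border protein villin, had 0.023 FPKM in control 2 and 0.0233 FPKM in control 1. CEACAM5, the carcinoembryonic antigen, had 0.107 FPKM in control 2 and 0.018 FPKM in control 1. The colon antigen GPA33 had 0 FPKM in control 2 and 0.0222 FPKM in control 1, and the galectin LGALS4 had 0.0351 FPKM in control 2 and 0.0356 FPKM in control 1. Genes of mature absorptive cells (FABP1, FABP2, SI, ALPI, SLC26A3), of goblet cells (TFF3, AGR2) and of Paneth cells (DEFA5, DEFA6) were listed at 0 in both controls. The highest member was CA2, a carbonic anhydrase, with 23.6 FPKM in control 2 and 24.9 FPKM in control 1. Of the 11 markers of colorectal epithelium, the general epithelial ones were therefore high, and the gut-specific ones were at or near 0 apart from CDX2.

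Genes tied to WNT signalling were mixed. CCND1, which encodes cyclin D1, had 358 FPKM in control 2 and 359 FPKM in control 1, and MYC had 85.8 FPKM in control 2 and 91.9 FPKM in control 1. The progenitor factor SOX9 had 83.9 FPKM in control 2 and 81.4 FPKM in control 1, and the WNT transcription factor TCF7L2 had 32.8 FPKM in control 2 and 33.6 FPKM in control 1. CTNNB1 itself had 58.5 FPKM in control 2 and 61.1 FPKM in control 1, and AXIN2, a feedback target of the pathway, had 3.28 FPKM in control 2 and 3.74 FPKM in control 1. The stem cell receptor LGR5 was listed at 0, and OLFM4, another marker of crypt stem cells, had 0.0215 FPKM in control 2 and 0.0218 FPKM in control 1. The list thus held high members and members listed at 0 in each control.

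Markers of other cell types were low for the most part. No endothelial marker of 10 reached 1 FPKM; the highest, PECAM1, had 0.231 FPKM in control 2 and 0.269 FPKM in control 1. Of 11 fibroblast markers, 2 reached 1 FPKM. COL1A1, a chain of type I collagen, had 8.88 FPKM in control 2 and 8.79 FPKM in control 1, while COL1A2, which encodes its partner chain, had 0.0232 FPKM in control 2 and 0.0354 FPKM in control 1. The matrix protein FBLN1 had 9.43 FPKM in control 2 and 8.98 FPKM in control 1, and DCN, which encodes decorin, had 0.0244 FPKM in control 2 and 0 FPKM in control 1. Of 20 leukocyte markers, 9 reached 1 FPKM. The lysosomal protein CD68, which many cell types contain, was highest with 58.7 FPKM in control 2 and 61.9 FPKM in control 1, and lysozyme, LYZ, had 12.2 FPKM in control 2 and 11.1 FPKM in control 1. PTPRC, the pan-leukocyte CD45, had 0.717 FPKM in control 2 and 0.93 FPKM in control 1. The T cell receptor chain CD3E had 0.582 FPKM in control 2 and 0.674 FPKM in control 1. Summed over the 20 leukocyte markers, the level was 93.9 FPKM in control 2 and 95.7 FPKM in control 1. Of 17 hepatocyte and erythroid markers, 3 reached 1 FPKM in both controls, and the highest had a mean of 6.39 FPKM. HBB, the beta-globin, had 2.11 FPKM in control 2 and 1.73 FPKM in control 1, and albumin, ALB, had 0 FPKM in control 2 and 0.0546 FPKM in control 1.

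Of 17 mesenchymal genes, 8 reached 1 FPKM in both controls and 7 were under it in both. The calcium-binding protein S100A4 had 263 FPKM in control 2 and 265 FPKM in control 1, and ITGB1, the integrin beta-1 chain that epithelial cells make too, had 251 FPKM in control 2 and 235 FPKM in control 1. These held most of the sum over the list, 562 FPKM in control 2 and 547 FPKM in control 1. FN1, which encodes fibronectin, had 9.4 FPKM in control 2 and 8.49 FPKM in control 1. VIM, which encodes vimentin, had 6.37 FPKM in control 2 and 8.41 FPKM in control 1, a difference of -0.35 on the log2(FPKM + 1) scale. CDH2, which encodes N-cadherin, had 0.117 FPKM in control 2 and 0.342 FPKM in control 1. The repressor ZEB1 had 1.81 FPKM in control 2 and 1.8 FPKM in control 1, and SNAI1 had 18.2 FPKM in control 2 and 15.3 FPKM in control 1. Of 16 neural and neuroendocrine markers, 6 reached 1 FPKM. ENO2, the neuronal enolase and a glycolytic enzyme, had 166 FPKM in control 2 and 178 FPKM in control 1. The neuronal tubulin TUBB3 had 42.8 FPKM in control 2 and 43.4 FPKM in control 1, and the secreted neuropeptide precursor VGF had 34.3 FPKM in control 2 and 35.9 FPKM in control 1. CHGA, which encodes chromogranin A, was listed at 0, and SYP, the synaptic vesicle protein synaptophysin, had 0.827 FPKM in control 2 and 0.917 FPKM in control 1.

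**Figure D2:**
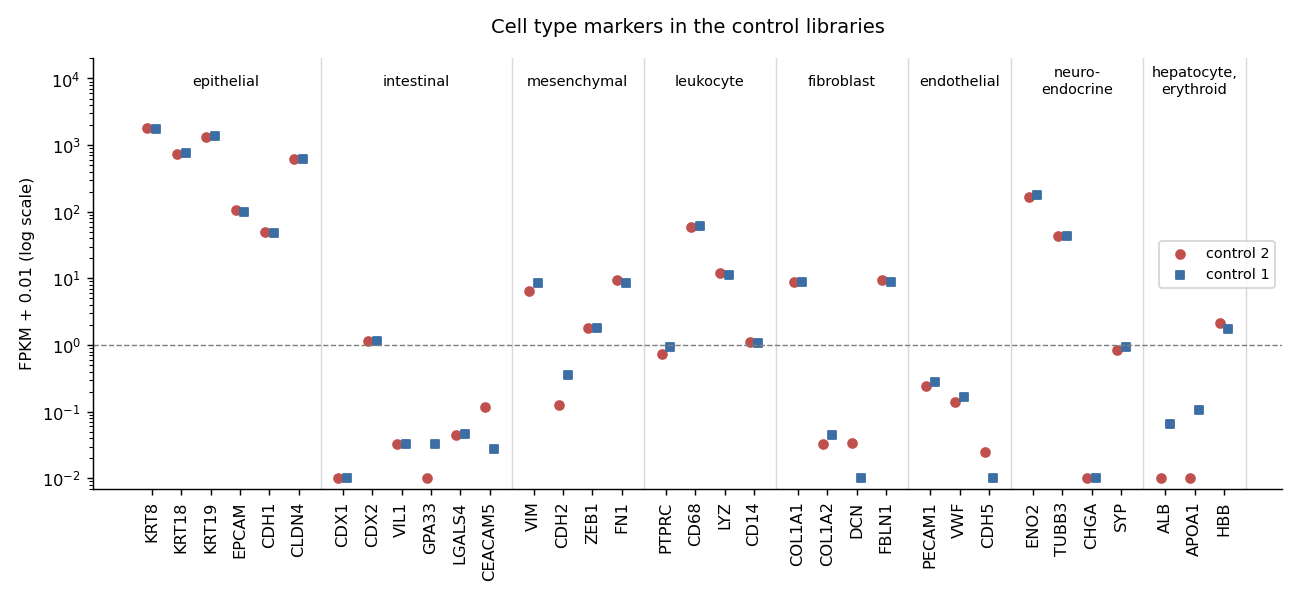
FPKM + 0.01 on a log axis for markers of 8 cell types or states, with control 2 (circle) left of control 1 (square) for each gene. The dashed line marks 1 FPKM. Epithelial markers lie far above it, and the intestinal markers lie below it apart from CDX2.

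The genes the study aimed at were both expressed in the controls. SP1 had 37.2 FPKM in control 2 and 36.6 FPKM in control 1, and SP3 had 13 FPKM in control 2 and 13.3 FPKM in control 1. These differed by 0.02 and -0.03 on the log2(FPKM + 1) scale, which is within the SD of the difference over genes of their level. Of 26 genes of the SP and KLF families, which share the zinc finger fold, 17 reached 1 FPKM in both controls. KLF6 was highest with 81.2 FPKM in control 2 and 75.4 FPKM in control 1, and KLF10, induced early by TGF-beta, had 72.9 FPKM in control 2 and 64.2 FPKM in control 1. KLF4, an epithelial differentiation factor, had 59.1 FPKM in control 2 and 54.9 FPKM in control 1, and KLF5, a factor of dividing crypt cells, had 28.3 FPKM in control 2 and 26.9 FPKM in control 1. Of the other SP genes, SP2 had 2.85 FPKM in control 2 and 2.77 FPKM in control 1 and SP4 had 1.44 FPKM in control 2 and 1.53 FPKM in control 1.

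Control 2 was then set against control 1 gene by gene. The controls were close, and control 2 was on balance slightly lower for genes of low level. For each gene the difference is log2(FPKM + 1) in control 2 minus that in control 1, which understates the change of low genes. Over 10899 genes at a mean of 1 FPKM or more the median was -0.03 with an SD of 0.127. The difference was above 0 for 4300 genes and below 0 for 6599. The central 90% of genes lay between -0.24 and 0.16. The list values below use the 7095 genes at a mean of 5 FPKM or more, whose median difference was -0.02 with an SD of 0.107. Their differences ran from -0.74 to 0.65, so none was 2-fold on this scale, 1 was at least 1.5-fold higher and 3 were at least 1.5-fold lower.

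A gene was counted as higher or lower in control 2 where it had a mean of at least 5 FPKM and differed by at least 1.2-fold on FPKM + 1. By this rule 56 genes were higher (0.789% of 7095) and 121 were lower (1.71%). With the further condition that the 95% interval of the ratio of recovered reads (exact, for counting error only) was clear of 1, 47 genes were higher (0.662%) and 107 were lower (1.51%). The excess of lower genes was found under 20 FPKM: at a mean of 20 FPKM or more it turned round, with 22 higher and 15 lower, with or without the interval. These 4 shares are the background for every count of higher or lower list members below. The background for counts of sign is 41.6% of the 7095 genes above 0 and 58.4% below. The words higher and lower below stand for the rule with the interval unless another is named. When control 2 was rescaled by the median ratio over genes (0.985), the split was 71 higher and 99 lower, or 58 and 85 with the interval. Of the genes named below, BORA, KIF11, PLK1, RFC4 and XPC then no longer reached 1.2-fold. Regardless of size, the interval was clear of 1 for 1409 genes (19.9%), 519 higher and 890 lower, where counting error alone gives about 5%. The libraries therefore differed by more than counting error.

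**Figure D3:**
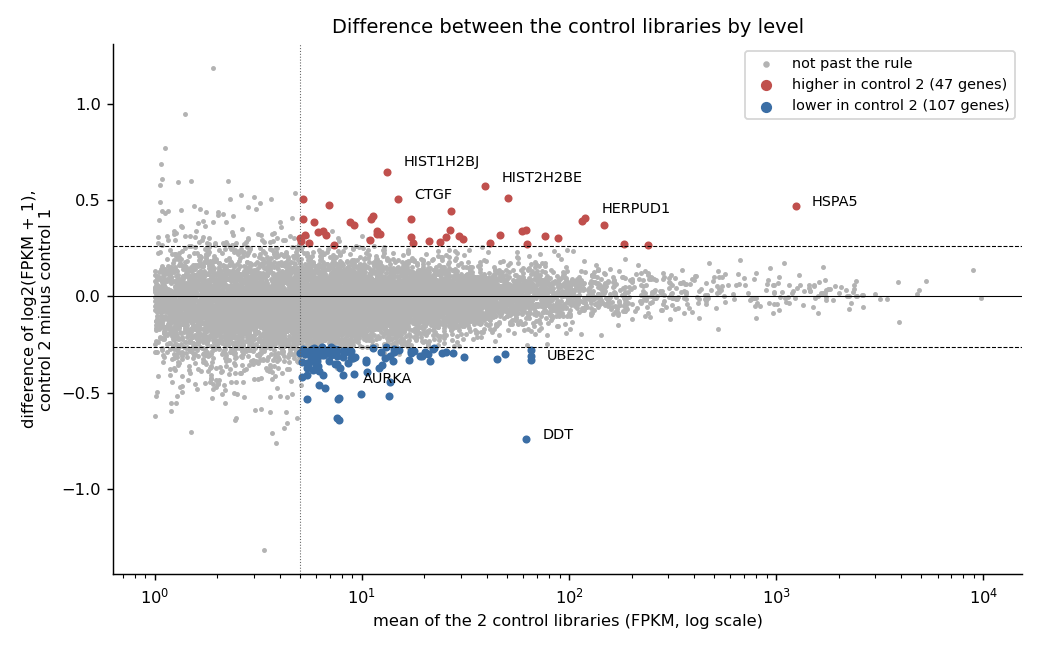
Difference of log2(FPKM + 1), control 2 minus control 1, against the mean FPKM on a log axis, 1 point per gene with a mean of at least 1 FPKM. Dashed lines mark 1.2-fold either way and the dotted line marks 5 FPKM. The 47 higher genes are red and the 107 lower genes are blue. HSPA5 stands alone among genes at 1000 FPKM or more.

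The spread shrank with level but stayed above counting error. Between 1 and 5 FPKM the SD of the difference was 0.157 over 3804 genes, where counting alone gives 0.111 for the median gene. Between 5 and 20 FPKM it was 0.114 against 0.078. Between 20 and 100 FPKM it was 0.093 against 0.052. For 415 genes between 100 and 1000 FPKM it was 0.075 against 0.029, and for 70 genes above that it was again 0.075, against 0.014. An SD taken from the median absolute deviation, which a few outlying genes move little, was 0.072 and 0.041 in these upper classes. By that measure the spread was smaller in the highest class too. The share of genes past 1.2-fold was 9.65% between 1 and 5 FPKM, 3.12% between 5 and 20, 1.46% between 20 and 100, 1.2% between 100 and 1000 and 1.43% above. Because recovered reads are lower limits, the counting values are upper limits. The median difference also moved with level, at -0.05 between 1 and 5 FPKM and 0.02 at 100 FPKM or more.

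**Figure D4:**
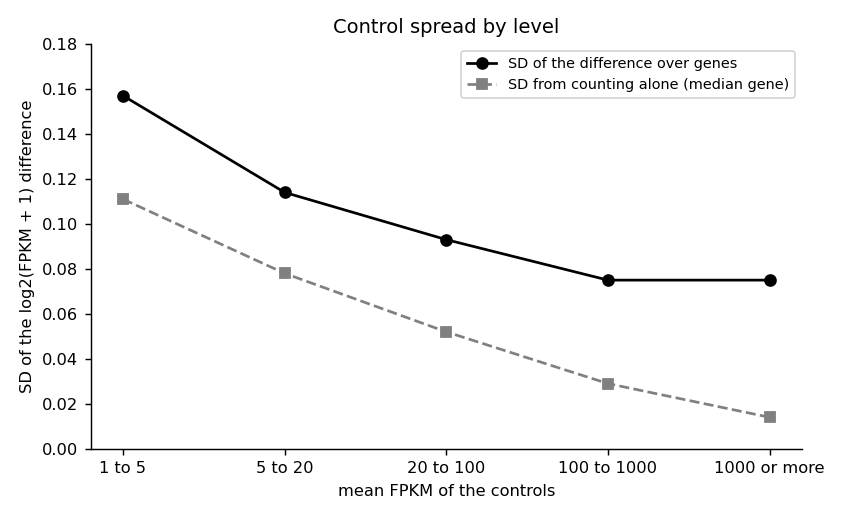
SD of the log2(FPKM + 1) difference, control 2 minus control 1, over the genes of 5 level classes (solid line), with the SD that counting alone gives the median gene (dashed line). The observed SD falls from 0.157 in the lowest class to 0.075 in both upper ones and lies above the counting value in each class. It can be moved by a few outlying genes, and the SD from the median absolute deviation, not drawn, was 0.041 in the highest class.

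Genes of mitosis lay below 0. All 65 listed mitosis genes were at 1 FPKM or more in both controls, and 53 had a mean of at least 5 FPKM. Every one of these 53 differed below 0, with a median of -0.19 against -0.02 over all genes. Of the 53, 16 were lower and 0 were higher, and all 53 stayed below 0 after the rescaling by the median ratio. AURKA, a kinase of spindle assembly, had 7.76 FPKM in control 2 and 10.6 FPKM in control 1, a ratio of 0.734 (95% counting interval 0.641 to 0.841). The kinetochore protein CENPF had 5.23 FPKM in control 2 and 7.15 FPKM in control 1, and the spindle protein DLGAP5 had 10.4 FPKM in control 2 and 13.7 FPKM in control 1. Control 2 was the lower library for each of them. Most of the mitosis genes named here were chosen after their values were seen, so that all 16 are given.

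CCNB1, which encodes the mitotic cyclin B1, had 18.7 FPKM in control 2 and 23.9 FPKM in control 1, and CCNB2, the other B cyclin, had 15.5 FPKM in control 2 and 19.1 FPKM in control 1. The mitotic kinase PLK1 had 20 FPKM in control 2 and 24.4 FPKM in control 1. UBE2C, the ubiquitin-conjugating enzyme of the anaphase-promoting complex, was the most abundant of the 16, with 58.1 FPKM in control 2 and 72.3 FPKM in control 1 and a ratio of 0.804 (95% counting interval 0.743 to 0.869). The proliferation antigen MKI67 had 21.8 FPKM in control 2 and 26.9 FPKM in control 1 and rested on 4573 recovered reads in control 2 and 5572 in control 1. BIRC5, which encodes survivin, had 12.4 FPKM in control 2 and 15.9 FPKM in control 1. The others were KIF20A, CCNF, KIF2C, NCAPG, HJURP, KIF11 and BORA, at differences from -0.36 for the kinesin KIF20A to -0.27 for the PLK1 activator BORA.

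The size of the difference varied among the 53. CDC20, the activator of the anaphase-promoting complex, had 69.1 FPKM in control 2 and 76 FPKM in control 1, a difference of -0.14. CDK1, the kinase of the B cyclins, had 24.8 FPKM in control 2 and 27.6 FPKM in control 1. CCNA2, which encodes cyclin A2 and is made from S phase on, had 17.6 FPKM in control 2 and 18.2 FPKM in control 1, the smallest difference of the 53 at -0.05. Summed over the list, mitosis genes had 1099 FPKM in control 2 and 1259.7 FPKM in control 1. Genes that act earlier in the cycle stood nearer to the background. Of 30 DNA replication genes at that level, the median was -0.04. The clamp loader subunit RFC4 was the 1 lower member, with 19.8 FPKM in control 2 and 24.2 FPKM in control 1. GINS2, a subunit of the replicative helicase, passed 1.2-fold the other way with 11.9 FPKM in control 2 and 9.51 FPKM in control 1, but its interval of 0.831 to 1.91 held 1. Recovered reads are lower limits, so this interval may be too wide and does not settle the case of GINS2. The clamp PCNA had 53.7 FPKM in control 2 and 56.9 FPKM in control 1. Of 19 G1 cyclins, kinases and inhibitors, 0 were higher or lower, with a median of -0.02. The share of cells in mitosis and the amount of RNA per cell cannot be told apart in bulk libraries.

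Some genes that were not on the list were picked from the lower ones after their values were seen, most of them for mitotic roles. That they were lower follows from this choice, and mitosis genes off the list that were not lower were not counted. CKAP2, a spindle microtubule protein, had 8.99 FPKM in control 2 and 12.1 FPKM in control 1, and FAM83D, a spindle protein, had 9.09 FPKM in control 2 and 11.8 FPKM in control 1. DSN1, a kinetochore subunit, had 6.07 FPKM in control 2 and 7.58 FPKM in control 1. The chromatin protein HMGB2 had 59.1 FPKM in control 2 and 72 FPKM in control 1.

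The promoters of the mitosis genes were searched for 2 elements known from genes that peak late in the cell cycle. The cell cycle homology region was searched as TTTGAA and the CCAAT box as CCAAT, each on both strands. TTTGAA was found in 33 of the 46 matched mitosis windows, 71.7%, against 8.36% of the windows of all genes at a mean of 5 FPKM or more and 12.1% of all windows. CCAAT was found in 37 of the 46, 80.4%, against 38.1% and 36.5%. Among windows with TTTGAA whose genes were not on the mitosis list, 7 of 456 genes were lower, 1.54%, against 1.31% of 5350 without it, and 8 were higher, 1.75%, against 0.654%. The median difference of these genes was -0.04 with TTTGAA and -0.02 without it. With both elements in the window, 2 of 195 genes off the mitosis list were lower, 1.03%, against 1.34% of 5611 others. In the same comparison 3 were higher, 1.54%, against 0.713%.

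The promoters of PLK1, CCNB2 and DLGAP5 are printed because these genes were lower and hold both elements. Each is the 250 bases before the start, in GRCh38.p14, with CCAAT and TTTGAA in either orientation in capitals. PLK1 is at chr16:23678639-23678888, plus strand, with CCAAT at -73 and TTTGAA at -29, counted back from the start. CCNB2 is at chr15:59104896-59105145, plus strand, with 4 CCAAT matches and with TTTGAA at -29. DLGAP5 is at chr14:55191586-55191835, minus strand, with CCAAT at -87 and -22 and TTTGAA matches at -138 and, reversed, at -109.
PLK1: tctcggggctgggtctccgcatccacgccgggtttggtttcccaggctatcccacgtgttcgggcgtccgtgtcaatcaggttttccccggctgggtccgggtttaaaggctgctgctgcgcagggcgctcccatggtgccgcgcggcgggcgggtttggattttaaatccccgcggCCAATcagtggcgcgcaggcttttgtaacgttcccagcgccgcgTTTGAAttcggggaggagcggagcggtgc
CCNB2: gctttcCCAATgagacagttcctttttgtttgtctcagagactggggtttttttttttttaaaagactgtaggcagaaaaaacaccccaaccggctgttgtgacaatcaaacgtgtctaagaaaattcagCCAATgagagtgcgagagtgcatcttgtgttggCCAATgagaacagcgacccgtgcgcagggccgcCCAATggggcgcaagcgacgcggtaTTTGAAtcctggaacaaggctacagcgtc
DLGAP5: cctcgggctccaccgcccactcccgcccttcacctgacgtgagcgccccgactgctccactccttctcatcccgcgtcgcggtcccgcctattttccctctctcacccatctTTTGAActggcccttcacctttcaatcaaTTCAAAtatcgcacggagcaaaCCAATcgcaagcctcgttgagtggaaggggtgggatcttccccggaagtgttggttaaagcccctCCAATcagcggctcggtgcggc

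Histone genes had the highest median difference of the lists. Of 52 listed histone genes, 48 were in the tables, 12 reached 1 FPKM in both controls and 32 were under it in both. Only 7 had a mean of at least 5 FPKM, so most of the family is not described by this comparison. All 7 differed above 0, with a median of 0.32, and 5 were higher. HIST1H2BJ, an H2B gene, had 16.3 FPKM in control 2 and 10.1 FPKM in control 1 and the largest positive difference of all 7095 genes at 0.65, on only 125 recovered reads in control 2 and 76 in control 1. HIST2H2BE, also H2B, had 47.1 FPKM in control 2 and 31.3 FPKM in control 1, a ratio of 1.5 (95% counting interval 1.39 to 1.63) on 1664 recovered reads in control 2 and 1091 in control 1.

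HIST1H2BD had 31.1 FPKM in control 2 and 22.6 FPKM in control 1, HIST1H2BK had 51.9 FPKM in control 2 and 41.3 FPKM in control 1, and the linker histone HIST1H1C had 98.2 FPKM in control 2 and 79.4 FPKM in control 1. Control 2 was the higher library for each. HIST1H2AC, an H2A gene, had 33.6 FPKM in control 2 and 28.8 FPKM in control 1 and did not reach 1.2-fold. H1F0, a linker histone made outside S phase from a polyadenylated transcript, had 682 FPKM in control 2 and 628 FPKM in control 1, a difference of 0.12. Most histone transcripts carry no poly(A) tail, and a selection for poly(A) was not given in the sources used here. Histone genes within a class are near-identical in their coding part, so reads can be shared between them. HIST3H2A, an H2A gene that was not on the list, was picked from the higher genes after its value was seen. It had 28.2 FPKM in control 2 and 22.5 FPKM in control 1.

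The histone promoters were AT-rich, with a median GC content of 43.8% over 6 matched windows against 66.3% for genes of at least 5 FPKM. All 6 held a CCAAT box, against 38.1%. TATAAA was found in 5 of 6, against 5.04%. Those of HIST2H2BE and HIST1H2BD are shown, as higher genes with several copies of each element. Both are the 250 bases before the start in GRCh38.p14, with CCAAT and TATAAA in either orientation in capitals. HIST2H2BE, now named H2BC21, is at chr1:149886683-149886932, minus strand, with the TATA box nearest the start at -30. HIST1H2BD, now H2BC5, is at chr6:26157871-26158120, plus strand, with the nearest at -28.
HIST2H2BE: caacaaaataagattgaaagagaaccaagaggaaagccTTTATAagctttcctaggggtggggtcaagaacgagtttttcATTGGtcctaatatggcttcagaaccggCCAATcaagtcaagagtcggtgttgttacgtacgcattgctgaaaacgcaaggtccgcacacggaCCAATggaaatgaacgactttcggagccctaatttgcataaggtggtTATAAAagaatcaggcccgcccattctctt
HIST1H2BD: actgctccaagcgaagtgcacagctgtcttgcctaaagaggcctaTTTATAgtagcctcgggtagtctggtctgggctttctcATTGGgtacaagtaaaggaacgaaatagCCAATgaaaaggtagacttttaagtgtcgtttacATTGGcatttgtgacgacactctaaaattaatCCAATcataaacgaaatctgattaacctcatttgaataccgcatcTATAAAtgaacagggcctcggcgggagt

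Genes of the unfolded protein response, by which cells answer misfolded protein in the endoplasmic reticulum, included 4 that were higher in control 2. Of 26 genes of the ATF4 and unfolded protein response list with a mean of at least 5 FPKM, 22 differed above 0 and 0 were lower. Their median was 0.10. HSPA5, the main chaperone of the endoplasmic reticulum, had 1440.3 FPKM in control 2 and 1040.0 FPKM in control 1, a ratio of 1.38 (95% counting interval 1.37 to 1.4) on 90911 recovered reads in control 2 and 64747 in control 1. It was the only gene past 1.2-fold among the 100 highest. HERPUD1, which acts in the degradation of misfolded proteins, had 137 FPKM in control 2 and 103 FPKM in control 1, and DDIT3, the stress transcription factor CHOP, had 66 FPKM in control 2 and 51.9 FPKM in control 1. SLC3A2, the heavy chain of amino acid transporters, had 68.7 FPKM in control 2 and 56.8 FPKM in control 1.

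Other members of that list, some of them chosen after their values were seen, did not reach 1.2-fold. HSP90B1, another chaperone of the same compartment, had 563 FPKM in control 2 and 525 FPKM in control 1, and the disulfide isomerase PDIA4 had 134 FPKM in control 2 and 124 FPKM in control 1. SDF2L1, a partner of HSPA5, had 35.6 FPKM in control 2 and 29.9 FPKM in control 1, a difference of 0.24. ASNS, the asparagine synthetase and a target of ATF4, lay on the other side with 13.2 FPKM in control 2 and 14.9 FPKM in control 1. HSPA5, HSP90B1, PDIA4 and SDF2L1 were thus all above 0, while ASNS was below 0. Of the 26 genes of the list, 22 differed above 0 and 4 below.

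The ER stress element was searched as CCAAT, then any 9 bases, then CCACG, on both strands. It was found in 4 of 26 windows of the list (CRELD2, HSP90B1, HSPA5 and XBP1), against 0.171% of windows of genes at a mean of 5 FPKM or more. Of these 4, HSPA5 was higher, HSP90B1 and XBP1 did not reach 1.2-fold with 26.1 FPKM in control 2 and 24.5 FPKM in control 1 for the transcription factor XBP1, and CRELD2 was below 0 with 6.4 FPKM in control 2 and 7.24 FPKM in control 1. The HSPA5 promoter is printed as that of the most abundant gene past 1.2-fold. It is the 250 bases before the start at chr9:125241344-125241593, minus strand, in GRCh38.p14, with the whole element at -66 in capitals. The element contains a CCAAT box.
HSPA5: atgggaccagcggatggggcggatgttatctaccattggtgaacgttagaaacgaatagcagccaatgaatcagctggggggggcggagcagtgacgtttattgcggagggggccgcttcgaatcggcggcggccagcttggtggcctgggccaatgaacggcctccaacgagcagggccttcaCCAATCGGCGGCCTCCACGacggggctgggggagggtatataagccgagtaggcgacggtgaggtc

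Immediate early genes, which growth signals induce within minutes without new protein synthesis, included 5 that were higher. Of 30 with a mean of at least 5 FPKM, 23 differed above 0 and 7 below, 0 were lower, and the median was 0.10 against -0.02 over all genes. CTGF, a secreted matricellular protein, had 17.6 FPKM in control 2 and 12.1 FPKM in control 1, a ratio of 1.46 (95% counting interval 1.29 to 1.65). CYR61, of the same family and like CTGF a target of YAP, had 131 FPKM in control 2 and 99.6 FPKM in control 1. The AP-1 subunit FOS had 10.1 FPKM in control 2 and 7.48 FPKM in control 1, the transcription factor EGR1 had 30 FPKM in control 2 and 23.4 FPKM in control 1, and the MAP kinase phosphatase DUSP1 had 167 FPKM in control 2 and 129 FPKM in control 1.

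Control 2 was higher for all 5. The most abundant members stayed within 1.2-fold: DUSP5, a phosphatase of ERK, had 1069.5 FPKM in control 2 and 998 FPKM in control 1, IER3 had 831 FPKM in control 2 and 765 FPKM in control 1, and JUNB had 713 FPKM in control 2 and 625 FPKM in control 1. MYC, also on this list, was on the other side with a difference of -0.10. The list of YAP and TEAD genes and targets, which also holds CTGF and CYR61, was balanced. Of its 18 genes at that level 9 were above and 9 below 0, with CTGF and CYR61 the 2 higher members and the transcription factor TEAD2 the 1 lower member, at 4.62 FPKM in control 2 and 6.27 FPKM in control 1.

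Among 25 genes of the chaperone list, of the cytosol and of mitochondria, with a mean of at least 5 FPKM, 3 were higher, 0 were lower and the median was 0.02. HSPA1B, a stress-induced HSP70, had 59.9 FPKM in control 2 and 41.7 FPKM in control 1, a ratio of 1.44 (95% counting interval 1.35 to 1.53). It has a near-identical neighbour, HSPA1A, so its reads may be shared. The HSP40 co-chaperone DNAJB1 had 85.1 FPKM in control 2 and 68.2 FPKM in control 1. HSPE1, the mitochondrial HSP10, had 12.8 FPKM in control 2 and 9.43 FPKM in control 1. It overlaps HSPE1-MOB4, and both that readthrough gene and MOB4 itself were listed at 0, so this value is uncertain. The constitutive chaperones differed little, with 544 FPKM in control 2 and 496 FPKM in control 1 for HSPA8 and 983 FPKM in control 2 and 966 FPKM in control 1 for HSP90AB1.

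**Figure D5:**
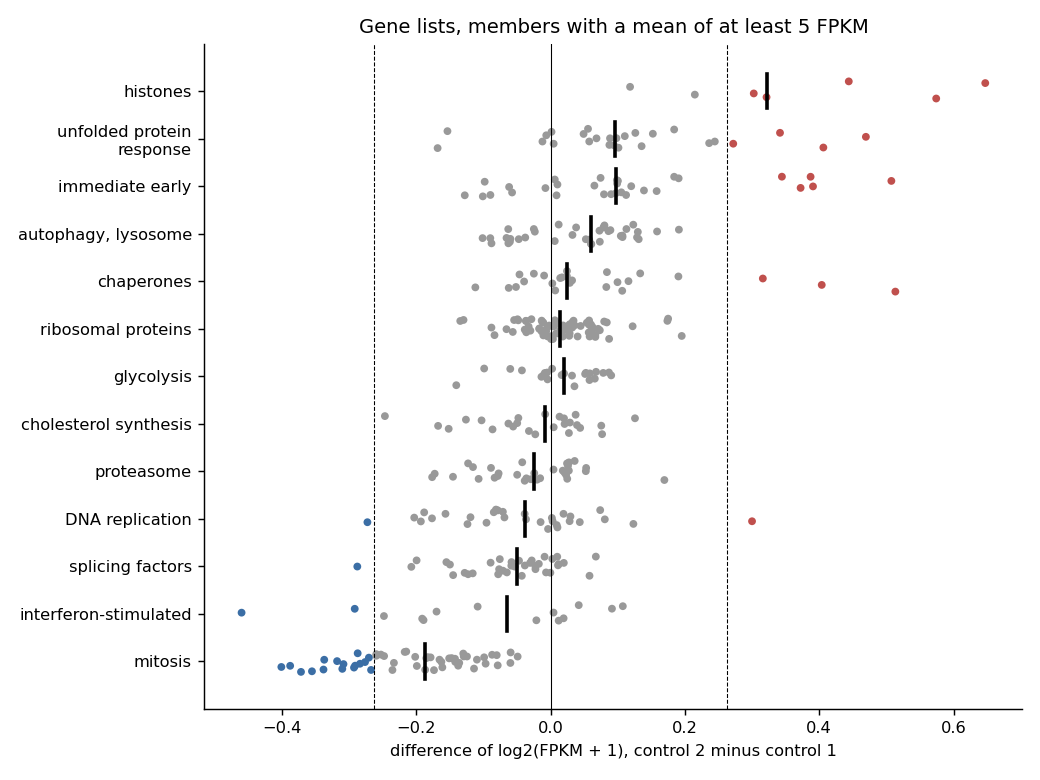
Difference of log2(FPKM + 1), control 2 minus control 1, for members of 13 lists with a mean of at least 5 FPKM, 1 point per gene, with the list median as a bar. Dashed lines mark 1.2-fold, red points lie at or past it above 0 and blue points below 0, whatever their counting interval. Histones lie wholly above 0, mitosis genes lie wholly below 0, and ribosomal proteins and glycolysis genes lie close around 0.

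Most other lists held few or no genes past the rule, which is also what the background share gives for lists of their size. Of 34 lists with at least 5 members at a mean of 5 FPKM, 19 had no member that was higher or lower, and 32 had a median within 0.1 of 0, all but mitosis and histones. None of 77 ribosomal protein genes was higher or lower, with a median of 0.01. The same count of 0 held for 23 glycolysis genes, 45 respiratory chain genes, 25 cholesterol synthesis genes, 31 proteasome genes, 37 cytoskeleton genes and 29 epithelial genes. The 12 SP and KLF genes of that level also had 0, with a median of 0.05, or 0.02 over the 17 at a mean of 1 FPKM. A count of 0 at the fixed 1.2-fold limit does not show that the genes are equal.

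Other lists had 1 or 2 genes past the rule, or none. Of 36 splicing factors, 29 differed below 0, where 58.4% of all genes did, with a median of -0.05 and 1 lower member, SRSF7, at 12.8 FPKM in control 2 and 15.8 FPKM in control 1. Of 14 interferon-stimulated genes, 6 were above and 8 below 0, close to the share over all genes, with a median of -0.06. Over the 26 with a mean of at least 1 FPKM the median was -0.16, against -0.03 over all genes of that level. The signalling factor IRF9 was lower with 5.62 FPKM in control 2 and 7.11 FPKM in control 1, and the antiviral membrane protein IFITM1 passed 1.2-fold with 4.12 FPKM in control 2 and 6.05 FPKM in control 1 but had an interval of 0.46 to 1. IFITM3, the highest of the list, had 492 FPKM in control 2 and 554 FPKM in control 1. Of 37 autophagy and lysosome genes, 25 were above 0, where 41.6% of all genes were, with a median of 0.06 and none past the rule. The lysosomal protease CTSD had 75.8 FPKM in control 2 and 67.8 FPKM in control 1. Of 27 p53 targets the median was -0.04. The growth arrest gene GADD45A was higher with 202 FPKM in control 2 and 167 FPKM in control 1, the repair gene XPC was lower with 6.65 FPKM in control 2 and 8.26 FPKM in control 1, and CDKN1A, which encodes the inhibitor p21, had 329 FPKM in control 2 and 343 FPKM in control 1.

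Among 20 genes often used as references for normalisation, 1 was lower. This was TBP, the TATA-binding protein, with 5.19 FPKM in control 2 and 6.77 FPKM in control 1, the lowest level of those named here. ACTB, which encodes beta-actin, had 1778 FPKM in control 2 and 1596 FPKM in control 1, a difference of 0.16. GAPDH, B2M and PGK1 were nearest to 0. B2M, the light chain of class I molecules, had 187 FPKM in control 2 and 185 FPKM in control 1, and PGK1, a glycolytic kinase, had 735 FPKM in control 2 and 725 FPKM in control 1.

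The largest single differences were in part those of genes with close copies. Among the 15 largest on the higher side were 3 histone genes, chaperones (HSPA1B, HSPE1), HSPA5 and HERPUD1, CTGF and CYR61, and low genes such as MORN2, with 6.28 FPKM in control 2 and 4.13 FPKM in control 1. CASTOR1, an arginine sensor of the mTORC1 pathway, had 8.26 FPKM in control 2 and 5.66 FPKM in control 1, and NOMO2 had 19.7 FPKM in control 2 and 14.6 FPKM in control 1. The remaining ones were MCRIP2, C11orf74 and NCBP2-AS2, from 0.42 to 0.39. For NCBP2-AS2, which is antisense to NCBP2, strand was not given as kept, so reads of the pair cannot be told apart.

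The largest difference below 0 was that of DDT, D-dopachrome tautomerase, with 46 FPKM in control 2 and 77.5 FPKM in control 1, a ratio of 0.594 (95% counting interval 0.532 to 0.662) on 529 recovered reads in control 2 and 879 in control 1. Its near-identical neighbour DDTL had 38 recovered reads in control 2 and 10 in control 1, and the sum of both genes was still lower, at 46.6 FPKM in control 2 and 77.7 FPKM in control 1. EIF3C, a translation initiation subunit, had 5.74 FPKM in control 2 and 9.43 FPKM in control 1, while its copy EIF3CL had 27 reads in control 2 and 10 in control 1. Their sum was 7.30 FPKM in control 2 and 10 FPKM in control 1. For NOMO2 the sum over NOMO1, NOMO2 and NOMO3, which includes NOMO2 itself, was 55.5 FPKM in control 2 and 48.9 FPKM in control 1. This sum differed by 0.18, against 0.40 for NOMO2 alone. For CBWD5, with 6.78 FPKM in control 2 and 9.33 FPKM in control 1, the sum over 5 CBWD genes was 29.9 FPKM in control 2 and 32.4 FPKM in control 1, a difference of -0.11. The copies were chosen after their values were seen, and the single values of these families are uncertain.

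Other genes far below 0 were SNCG, gamma-synuclein and a member of the neuroendocrine list, with 11 FPKM in control 2 and 16.2 FPKM in control 1, and FABP6, the ileal bile acid binding protein, with 5.8 FPKM in control 2 and 9.64 FPKM in control 1. FKBP11, a prolyl isomerase of the secretory pathway, had 7.95 FPKM in control 2 and 11.7 FPKM in control 1, and FGFBP1, a carrier of fibroblast growth factors, had 5.04 FPKM in control 2 and 7.32 FPKM in control 1. The metallothionein MT1F had 11.5 FPKM in control 2 and 16 FPKM in control 1. Metallothionein genes are near-identical too. METTL27, HDDC3, TMEM238, CCDC24, DMAC1 and DPH1 lay between -0.53 and -0.41. No list other than mitosis gave as many of the lower genes. Of the 107 lower genes 25 were on a list, and of the 47 higher genes 19 were.

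Transcript length and base composition moved with the difference only slightly. Using GENCODE 29, a coding transcript was found for 7075 of the 7095 genes (99.7%). Across genes, which are not independent replicates and share both libraries, the difference correlated at r = -0.06 with log2 length and at 0.08 with log2 GC content. The SD of the difference was 0.128 in the quintile of genes with the shortest transcripts (median 1324 bases), and 0.086 in the quintile with the longest (7097 bases). Calls at 1.2-fold with the earlier rule alone numbered 33 higher and 34 lower in the shortest quintile, and 0 higher and 8 lower in the longest. By GC content the median difference was -0.04 in the lowest quintile and -0.01 in the highest. Mitosis genes lay below all genes within each quintile that held more than 10 of them, at -0.25 against -0.04, -0.18 against -0.02, -0.24 against -0.01 and -0.14 against -0.02 from the lowest quintile up. Unfolded protein response genes lay above all genes in every quintile, between 0.06 and 0.13.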

How the data were processed

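The authors deposited 1 table per library, which pairs gene symbols with FPKM values. The submitters' processing notes name HISAT2 2.0.5, HTSeq 0.9.1, Cufflinks 2.2.1 and Trimmomatic 0.36 and state no role or order. The genome build, annotation, gene lengths, strand and treatment of reads with several matches were not given in the sources used here.

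Python 3.11.15 with pandas 2.3.3, NumPy 2.4.6 and SciPy 1.17.1 was used. FPKM values keep whole-read steps. The library denominators were found from low values and from 91 genes with 1 annotated transcript, and the smallest gene length that gave whole reads in both controls (tolerance 0.001 reads) set each gene's reads. All 16354 genes above 0 gave whole reads. Many lengths were searched, and only 1 value limits the length of a gene at 0 in 1 control. This count therefore does not test the recovery. The length kept can be the true one over a common factor, so recovered reads are lower limits. Their sum was 90.8% of each denominator. Intervals of a read ratio are exact conditional binomial ones (95%) and cover counting error only. They are too wide where the recovered reads understate the true ones.

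A pseudocount of 1 was added before taking log2. Counts of higher and lower genes needed a mean of at least 5 FPKM and a 1.2-fold difference. The gene lists (43, of which 2 had no gene in the tables), the named genes and the choice of libraries were made with earlier results of these data known. Named genes were the 25 highest, the 15 largest differences each way, up to 4 members per list by level and 2 by difference, SP1, SP3 and cell type markers, and not every one is printed. Some named genes are not reported here. Other genes in the text were chosen after their values were seen. Of 20030 symbols, 19590 were found in name tables, and 27 that read as calendar dates were not named. The interval and call steps were tested on simulated data with counting error only and changes of 1.5-fold. That test does not cover calls near 1.2-fold or spread beyond counting error. Knockdown libraries were left out.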

Additional observations from a re-analysis of the deposited data

How the results depend on the processing

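The control level and spread changed little with the processing, and the counts of higher and lower genes changed much. Leaving out 1 control, the genes at 1 FPKM or more numbered 10876 to 10944 and the share of the 100 highest genes was 43.4 to 43.9%. With a level of 0.5 FPKM the number was 11693, and with a TPM of at least 1 it was 11941. The median difference stayed between -0.04 and -0.01 and the SD between 0.107 and 0.164 under TPM scaling, median ratio scaling, a pseudocount of 0.1 and other filters. Over members at a mean of 1 FPKM, the 40 list medians kept their direction under the same scalings and pseudocount wherever they were 0.05 or more in size. For the medians at 5 FPKM this was run after seeing the data, over 34 lists, and none of the 12 of that size changed direction. The choice between these levels moved the median of G1 genes to -0.04 at 1 FPKM, against -0.02 at 5 FPKM. Of 63 named genes past 1.2-fold, BORA, KIF11, PLK1, RFC4 and XPC fell short of it after median ratio scaling, and none changed sign.

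Counts of genes past 1.2-fold changed with the filter, and the excess of lower genes turned into one of higher genes at 20 FPKM. With a mean of at least 1 FPKM they were 146 higher and 398 lower, with no filter 257 and 576, with a mean of at least 20 FPKM 22 and 15, and at 1.5-fold 1 and 3. With the counting interval as well, the numbers were 90 higher and 289 lower at 1 FPKM, 119 and 361 with no filter, 22 and 15 at 20 FPKM, and 1 and 3 at 1.5-fold. With TPM, 185 genes were lower, or 169 with the interval, against 121 and 107. A pseudocount of 0.1 gave 185 lower genes. The mitosis count was 16 lower of 53, 21 with TPM, 13 with the median ratio and 21 with the smaller pseudocount, and all 53 stayed below 0 in each case. The higher histone count was 5 of 7 in each. A filter changes which genes are counted, and the excess of lower genes lay under 20 FPKM; the cause of this and of the other changes was not tested. No paired analysis was possible because the comparison is between 2 libraries of 1 group.

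The depth limits what low genes can show. Genes between 1 and 5 FPKM rested on a median of 163 recovered reads, and those between 5 and 20 FPKM on 554.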

Other observations

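Below the level used for counts, at a mean of 1 to 5 FPKM, 2 genes differed by at least 2-fold on the log2(FPKM + 1) scale, and both have close copies. U2AF1L5, a copy of the splicing factor gene U2AF1, had 1.5 FPKM in control 2 and 5.24 FPKM in control 1, a difference of -1.32. The sum of U2AF1 and U2AF1L5 was 3.20 FPKM in control 2 and 7.25 FPKM in control 1. HIST1H2AG, an H2A gene, had 3.03 FPKM in control 2 and 0.768 FPKM in control 1, a difference of 1.19. This histone gene is named for the size of its difference alone, so it says nothing of the other histone genes of that level. Over the 15 listed histone genes at a mean of 1 FPKM or more, the median difference was 0.30. These include the 7 at 5 FPKM or more.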
